A study of Mus musculus with 3 samples.

Results

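The genes described are Mir155hg, the host gene from which the microRNA miR-155 is made, and 29 genes reported in the literature as targets of miR-155. They were chosen by symbol from that literature, with earlier results of these data known. Of these 30 members, 28 had a probe set annotated to their symbol alone, out of 18193 genes named on the arrays in the same way. Ripk1 and Picalm had no such probe set and were not analysed here. The RNA came from embryoid bodies of day 7, which are aggregates of embryonic stem cells that differentiate in suspension. The stem cells were mouse cells of strain 129S7/SvEv Brd-Hprt b-m2 in all 3 groups, and all 3 groups carried human BRCA1. In the WT group it was wild type, in the MI group it had the substitution M1652I, and in the RQ group it had the substitution that the series design writes as R1699Q and the array's label as R1669Q. The labels name no cell clone, passage or number of bodies pooled, and do not say whether the cells kept mouse Brca1.

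Each group was measured on 1 Affymetrix mouse expression array, so no value below has a replicate error, no difference was tested, and "higher" and "lower" describe these 3 arrays. The number of arrays limits the precision. Values are log2 signals, so a difference of 1 is 2-fold. Fewer cells of a type and less RNA per cell cannot be told apart in such bulk samples. The mean signal over 45101 probe sets was log2 6.60 on each array, with an SD across probe sets of 1.06 for MI and 1.17 for both others. The 18 hybridization spikes, which are control transcripts added to each sample, were lower on the RQ array than on the WT array by a median log2 difference of -0.64, and on the MI array by -0.80. Between RQ and MI the spikes differed by a median of 0.10.

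MicroRNAs are short RNAs that bind messenger RNAs, mostly through bases 2 to 8 at their 5′ end, the seed, and lower the stability or the translation of these messages. miR-155 is processed from the Mir155hg transcript and is best known from activated lymphocytes and macrophages, where it acts on signalling inhibitors and transcription factors. BRCA1, a DNA repair protein, has been reported to repress the miR-155 gene together with histone deacetylases. The study asked whether BRCA1 variants lose this repression. More miR-155 would be expected to lower messages of its targets, so the comparison asks whether the targets were lower in RQ than in WT and in MI.

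The sequences of miR-155 are given because the seed is what its targets are recognised by. They are from RefSeq on mouse build GRCm38.p6, plus strand. The capitals mark the seed in the mature forms and both mature arms in the hairpin. The -5p arm lies at chr16:84714143-84714165, the -3p arm at chr16:84714182-84714202 and the hairpin at chr16:84714140-84714204.
mmu-miR-155-5p: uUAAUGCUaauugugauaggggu
mmu-miR-155-3p: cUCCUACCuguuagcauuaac
miR-155 hairpin: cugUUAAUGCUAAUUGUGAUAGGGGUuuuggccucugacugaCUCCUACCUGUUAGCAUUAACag
The seed of the -5p arm is UAAUGCU, and a message pairs with it through AGCAUUA. Of 1738 mature mouse microRNAs in the RefSeq table, 1 has this seed, namely miR-155-5p itself. The arrays read messenger RNAs and long transcripts, and no mature microRNA was measured.

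Mir155hg had 1 probe set, which read log2 5.36 in WT, 5.34 in MI and 5.29 in RQ. The 3 values lie close together and RQ is the lowest of them. They stood at percentiles 2.16, 1.53 and 1.24 of all probe sets on their arrays. The limit for reading a difference here is log2 6.31, the median signal of the whole data set. Mir155hg lay well below it on every array, among the lowest signals of each, so no change in the host transcript could be read in either direction.

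**Figure D1:**
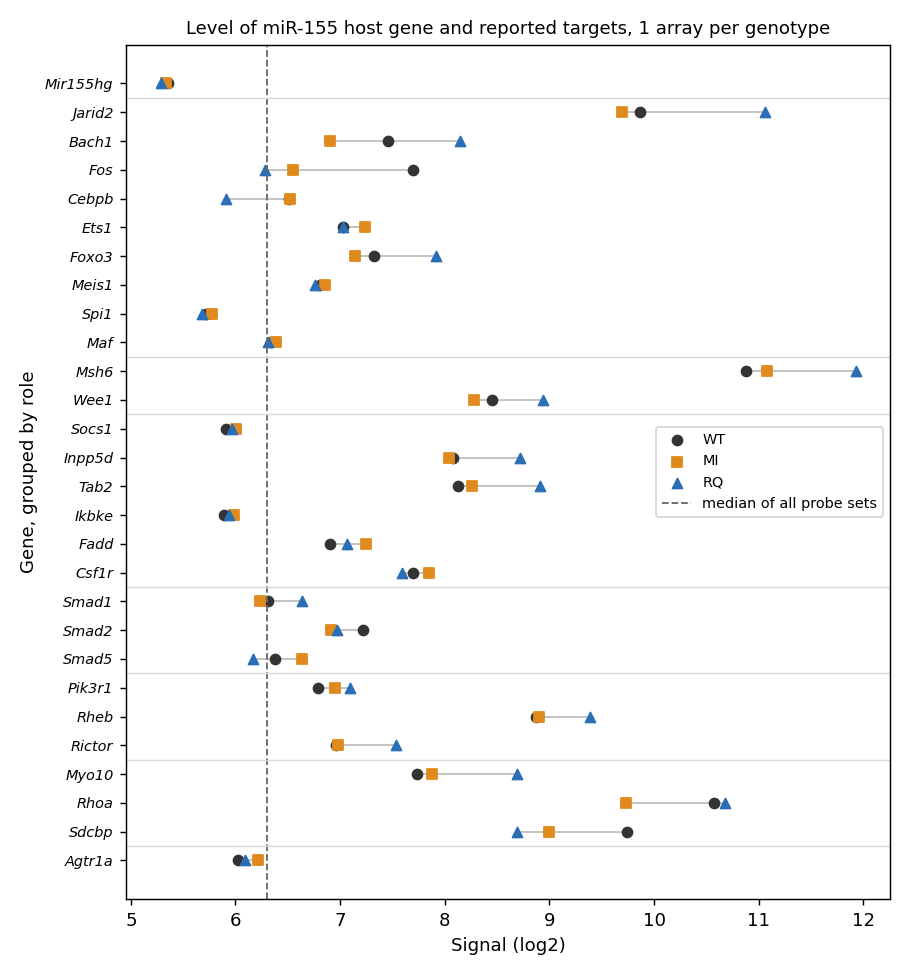
Log2 signal (horizontal axis) of Mir155hg and 27 reported targets on the WT (circle), MI (square) and RQ (triangle) arrays, 1 array each, with genes grouped by role and the dashed line at the median of all probe sets (6.31). Mir155hg lies left of the line on all 3 arrays, the RQ point is the rightmost for Jarid2 and Msh6, and the WT point is the rightmost for Fos and Sdcbp.

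Of the 27 targets with a value, 23 had a mean over the 3 arrays at or above this limit. The other 4 were Spi1, the myeloid transcription factor PU.1, Socs1, an inhibitor of cytokine signalling, Ikbke, a kinase of the innate immune response, and Agtr1a, an angiotensin receptor. Their signals ranged from log2 5.68 (Spi1 in RQ) to 6.21 (Agtr1a in MI), and no difference between arrays is read for them. Among the 23, Cebpb (mean 6.31), Maf (6.34), Smad5 (6.39) and Smad1 (6.40) lay just above the limit, and Agtr1a (6.11) just below it. Of the 23, Fos, Cebpb, Smad1 and Smad5 had at least 1 array below the limit, so that these 4 were kept by their other arrays.

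The targets were not lower in RQ as a group. Against WT, 2 of 23 reached 2-fold on the higher side (Jarid2 and Msh6), where 1.70% of the 12023 genes above the limit were. Fos and Sdcbp, also 2 of 23, were at least 2-fold lower, where 1.49% of all genes were. By sign alone 14 targets were above 0 (51.8% of all genes) and 9 below (48.2% of all genes). The median difference of RQ minus WT was 0.31 over the 23 targets and 0.01 over all genes above the limit. Over all 27 targets with a value, those near background included, it was 0.10.

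Against MI the picture was alike in direction, although both comparisons share the RQ array. In RQ, 2 of 23 targets were past 2-fold above MI (Jarid2 and Bach1, where 2.10% of all genes were) and 0 were 2-fold below it (0.499% of all genes). Signs were again 14 above 0 (45.6% of all genes) and 9 below (54.4% of all genes), with a median difference of 0.40 against -0.03 over all genes. The targets' median was 0.13 with a further quantile normalization and 0.21 with a lowess correction on level. Over the 27 targets the median was 0.05.

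The question needs RQ to lie below both other arrays. RQ was the lowest of the 3 arrays for 8 of 23 targets, close to the 33.5% of all genes for which it was. RQ was the highest for 13 of 23 targets (30.9% of all genes). None of the 23 lay 2-fold or more below both WT and MI, which 0.108% of all genes did. Jarid2 lay 2-fold or more above both, as did 0.665% of all genes. For MI against WT, 0 of 23 targets were at least 2-fold higher (0.524% of all genes) and 1, Fos, was at least 2-fold lower (2.58% of all genes). With 13 targets above 0 (58.1% of all genes) and 10 below (41.9% of all genes), the median was 0.01 for the targets and 0.05 for all genes. The sign of that target median depended on scaling, and 9 of the 27 targets changed sign between MI and WT under at least 1 other scaling. For RQ against WT this held for Ets1, and for RQ against MI for Maf, Socs1 and Ikbke.

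**Figure D2:**
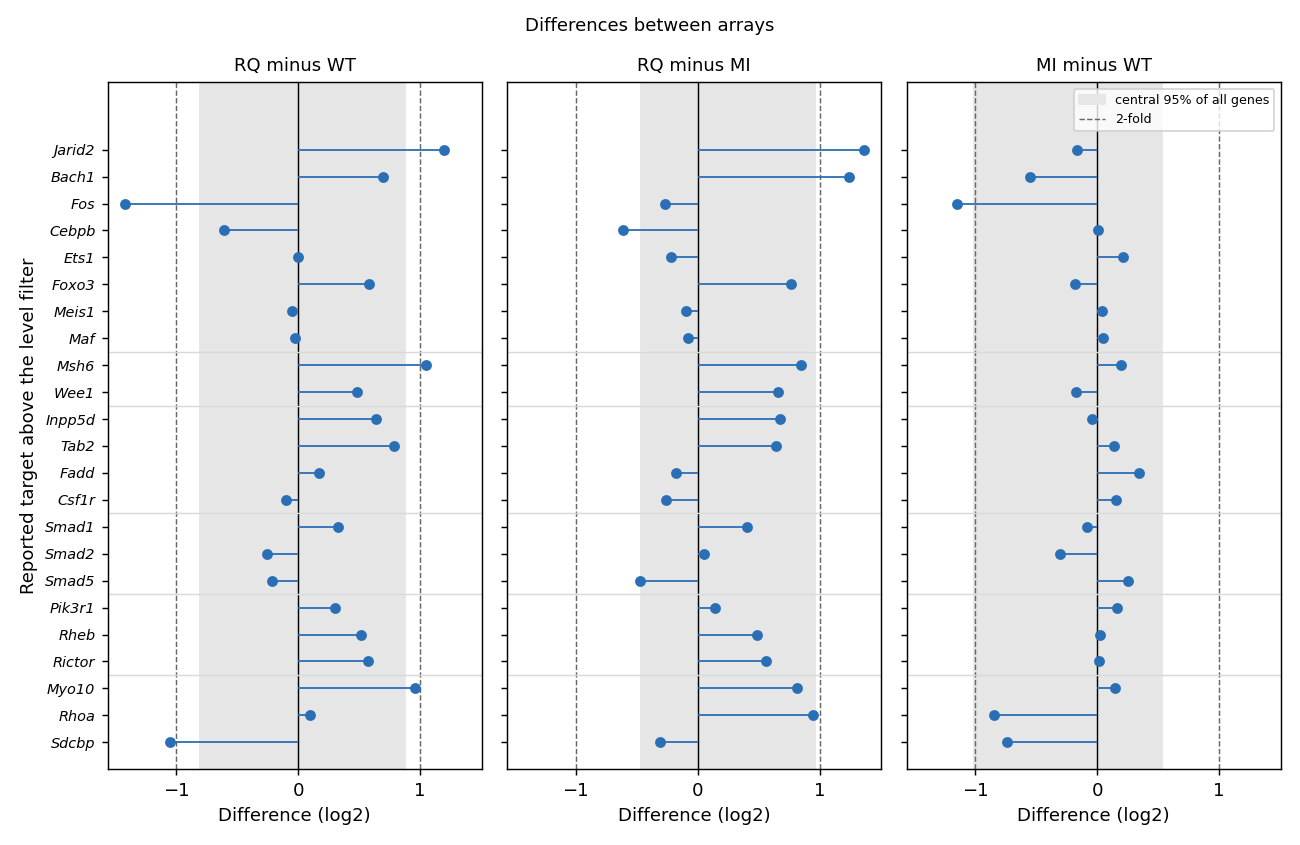
Log2 difference (horizontal axis) of RQ minus WT, RQ minus MI and MI minus WT for the 23 reported targets above the level limit, with dashed lines at 2-fold and a grey band for the central 95% of the 12023 genes above the limit. In the RQ panels Jarid2 stands past 2-fold on the higher side of both, whereas Fos and Sdcbp pass 2-fold on the lower side against WT only.

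The level of a gene bore on these counts. Among genes with a mean of log2 8 or more, RQ was the highest array for 46.7% of 2642 genes and for 8 of the 9 targets. Of the targets from the limit up to 7, RQ was the highest for 2 of 7 and the lowest for 5 of 7, where all genes gave 20.7% and 43.6%. At a mean of 8 or more the median of RQ minus MI was 0.33 over all genes and 0.68 over the 9 targets, and that of RQ minus WT was 0.03 and 0.64. The difference of RQ and MI for genes of high signal thus has a general part, which the difference of RQ and WT hardly shows.

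Among transcription and chromatin regulators, Jarid2 stood apart. Jarid2 is a subunit of Polycomb repressive complex 2, which places repressive marks on developmental genes in stem cells. It read log2 9.86 in WT, 9.69 in MI and 11.06 in RQ. WT and MI lie together and RQ stands above both, 2.29-fold over WT and 2.58-fold over MI. Its 3 probe sets gave RQ minus WT from 1.20 to 1.57 and RQ minus MI from 1.36 to 1.66. After the lowess correction of the difference on level, RQ minus MI of Jarid2 was 0.996, at the 2-fold limit.

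Bach1, a repressor of heme oxygenase and antioxidant genes, read log2 8.15 in RQ against 7.46 in WT and 6.90 in MI. Here all 3 arrays differ and RQ is the highest, at 0.69 above WT and 1.24 above MI. The second Bach1 probe set differed by 0.19 and -0.32, so the difference from MI was opposite in sign between the probe sets, and with their mean RQ minus MI was 0.46. Foxo3, a forkhead factor that PI3K signalling holds inactive, read 7.33, 7.14 and 7.91, with RQ again highest. Its 3 probe sets ranged from -0.36 to 0.58 for RQ minus WT.

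Fos and Cebpb were lowest in RQ. Fos, an immediate early subunit of the AP-1 factor, read log2 7.70 in WT, 6.55 in MI and 6.28 in RQ. The WT array is the high one, MI lies just above the limit and RQ just below it. Fos was 2.22-fold lower in MI than in WT and, with RQ set at the limit, at least 2.63-fold lower in RQ. Cebpb, a leucine zipper factor of inflammation and fat cell formation, read 6.51, 6.52 and 5.91, and RQ alone was below the limit. With RQ below the limit and the other arrays just above it, the size of the Cebpb difference is not read. Its second probe set, below the limit throughout, differed by -0.04 from WT and -0.03 from MI.

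The other 3 regulators above the limit differed little between arrays. Ets1, a lymphoid and endothelial factor, read 7.02, 7.24 and 7.02, Meis1, a partner of Hox proteins, 6.81, 6.85 and 6.76, and Maf, a factor of lens and immune cells, 6.34, 6.38 and 6.31 in WT, MI and RQ. Their RQ minus WT values lay between -0.05 and -0.00. Spi1 read 5.72, 5.78 and 5.68, all below the limit.

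Both members of mismatch repair and the cell cycle were highest in RQ. Msh6, which recognises mismatched bases, read log2 10.88 in WT, 11.08 in MI and 11.93 in RQ. RQ is the highest, 2.06-fold over WT and 1.80-fold over MI, from 1 probe set. RQ minus MI of Msh6 was 0.48 with the lowess correction and 0.50 with a further quantile normalization, and MI minus WT, 0.20 as deposited, was then 0.61 and 0.62. Wee1, the kinase that holds Cdk1 inactive before mitosis, read 8.45, 8.28 and 8.94. Its 2 probe sets gave RQ minus WT of 0.49 and 0.75 and RQ minus MI of 0.66 and 0.79. For the Wee1 probe set used, RQ minus MI was 0.39 with lowess and 0.33 with the further quantile normalization.

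In cytokine and innate signalling the members split. Inpp5d, the lipid phosphatase SHIP1 and a well known miR-155 target of blood cells, read log2 8.08 in WT, 8.04 in MI and 8.72 in RQ. Tab2, an adaptor that links receptors to the kinase Tak1, read 8.12, 8.26 and 8.91. RQ was highest for both, by 0.64 and 0.78 over WT, short of 2-fold. The 2 probe sets of each moved the same way, from 0.57 to 0.64 for Inpp5d and from 0.49 to 0.78 for Tab2. Fadd, the adaptor of death receptors, read 6.90, 7.24 and 7.07, and Csf1r, the receptor of macrophage colony-stimulating factor, read 7.70, 7.85 and 7.59. For Fadd and Csf1r the MI array was the high one by the probe sets used, and differences stayed within 0.35. Another Csf1r probe set above the limit was highest in WT instead, at 6.96 against 6.84 in MI and in RQ. Socs1 read 5.91, 6.00 and 5.97 and Ikbke 5.89, 5.99 and 5.93, all below the limit.

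The SMAD proteins carry signals of the TGF-beta family to the nucleus, Smad1 and Smad5 for BMP and Smad2 for Nodal and activin. Smad1 read log2 6.31 in WT, 6.24 in MI and 6.64 in RQ. Its 3 probe sets all had RQ above WT, by 0.33 to 0.91. Smad2 read 7.22, 6.92 and 6.97, with WT the high array. Smad5 read 6.38, 6.64 and 6.17, with RQ the lowest, but its 3 probe sets ranged from -0.21 to 0.52 for RQ minus WT. The SMAD members thus had no common direction.

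The members of PI3K and mTOR signalling were highest in RQ by the probe sets used, each by less than 2-fold. Rheb, the small GTPase that activates mTORC1, read log2 8.87 in WT, 8.90 in MI and 9.39 in RQ. Rictor, which defines mTORC2, read 6.96, 6.98 and 7.54, and Pik3r1, the regulatory subunit p85 of PI3K, read 6.79, 6.95 and 7.09. RQ minus WT was 0.51 for Rheb, 0.57 for Rictor and 0.31 for Pik3r1. WT and MI lay within 0.03 of each other for Rheb and Rictor as deposited. RQ minus MI of Rheb, 0.49 as deposited, was 0.09 with a further quantile normalization and 0.16 with lowess, which put MI nearer to RQ. The second Pik3r1 probe set above the limit had RQ as the lowest array, at -0.03 from WT and -0.09 from MI. The other 4 probe sets of Rictor, all below the limit, ranged from -0.33 to 0.03.

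The members that act on the cytoskeleton and membranes differed from each other. Myo10, a motor protein of filopodia, read log2 7.73 in WT, 7.88 in MI and 8.69 in RQ. RQ stood above both, by 0.96 over WT and 0.81 over MI, and all 4 Myo10 probe sets had RQ above both, by 0.03 to 0.96 over WT. Rhoa, the GTPase that drives actin contraction, read 10.58, 9.73 and 10.67, so that MI was the low array and RQ and WT were close. RQ minus MI of Rhoa, 0.95 as deposited, was 0.58 with lowess and 0.59 with the further quantile normalization. Sdcbp, the adaptor syntenin that binds syndecans and takes part in exosome formation, read 9.74, 9.00 and 8.69. WT was the high array and RQ was 2.07-fold below it. The other 2 Sdcbp probe sets differed by -0.18 and -0.02. Their means of 6.39 and 6.43 lay just above the limit, where a 2-fold fall could hardly be read. With the mean of its probe sets RQ minus WT of Sdcbp was -0.42, short of 2-fold. Agtr1a read 6.02, 6.21 and 6.09, below the limit on each array.

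**Figure D3:**
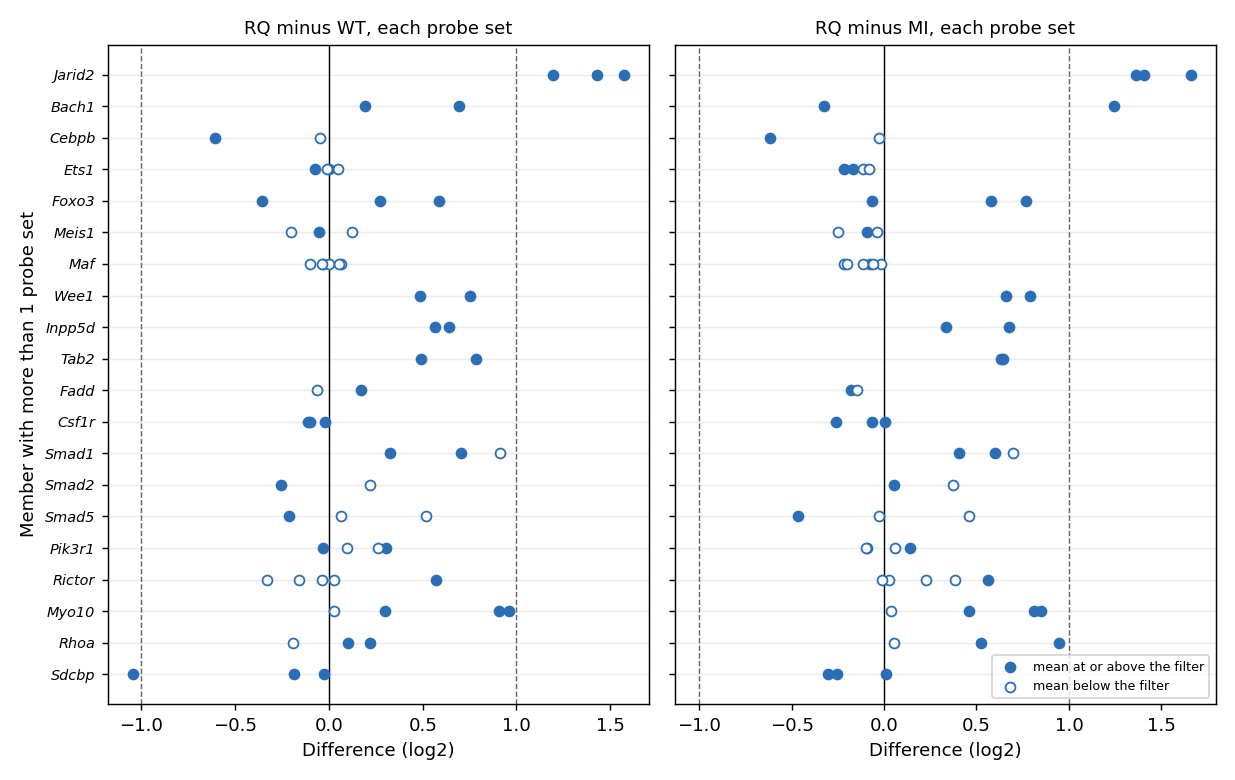
Log2 difference (horizontal axis) of RQ minus WT and RQ minus MI for each probe set of the 20 members with more than 1 probe set, filled where its mean is at or above the level limit and open where it is below, with dashed lines at 2-fold. All 3 Jarid2 probe sets lie past 2-fold in both panels, whereas Sdcbp passes it with 1 of 3 against WT and Bach1 with 1 of 2 against MI.

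A further list of reported miR-155 targets outside the members had 10 of 13 genes with a value, all with a mean above the limit. Il13ra1 and Ctla4 passed it through MI alone, at 6.56 and 6.44, and were below it in WT and RQ. Both are included in the counts that follow. None was at least 2-fold higher or lower in any of the 3 comparisons. Over all genes 0.499% to 2.58% were, by comparison and direction, so a list this short says little on that count. For RQ minus WT 7 were above 0 (51.8% of all genes) and 3 below (48.2% of all genes), with a median of 0.09 (0.01 over all genes). Apc, the tumour suppressor that promotes beta-catenin breakdown, was the highest of these, at log2 7.02 in WT, 7.01 in MI and 7.97 in RQ. Vhl, which marks hypoxia-inducible factors for breakdown, was the lowest, at 7.18, 6.71 and 6.92. RQ was the highest array for 5 of the 10 (30.9% of all genes) and the lowest for 2, Myd88 and Ctla4 (33.5% of all genes).

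Factors reported to drive Mir155hg gave 4 genes above the limit of 8 with a value. Junb, Jun, Stat3 and Fosl2 were lowest in RQ (33.5% of all genes). As deposited, 2 of them, Junb and Jun, were at least 2-fold lower than in WT (1.49% of all genes). Both were below the limit in RQ, Jun at 6.11 against 7.17 in WT. With RQ set at the limit, both differences fall short of 2-fold. Ets2 of the same list, whose mean of 6.30 fell just short of the limit, went the other way, at 6.10 in WT, 6.11 in MI and 6.70 in RQ. Of the other genes with a mean below the limit, Fosb was highest in RQ (5.82), Rela in MI (6.12) and Myb in WT (6.37). No difference is read for them. Junb, an AP-1 subunit, read log2 7.29 in WT, 6.72 in MI and 6.08 in RQ. Fosl2, the closest to WT, differed by -0.06 from WT. AP-1 is formed by Fos with Jun proteins, so the members of this list include the partners of Fos.

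Genes of microRNA processing, which cut, export and load all microRNAs, showed no 2-fold difference in any comparison (0.499% to 2.58% of all genes, by comparison and direction). Of 13 genes with a value 12 were above the limit. For RQ minus WT 10 were above 0 (51.8% of all genes) and 2 below (48.2% of all genes), with a median of 0.16 (0.01 over all genes). Xpo5, the exporter of microRNA precursors, was highest at 0.50, and Prkra, a partner of Dicer, was lowest at -0.45. Among mouse Brca1, its partner Bard1 and deacetylase subunits, 7 of 8 genes with a value were above the limit. None was past 2-fold, which few genes of any list would be at the shares just given. The Brca1 probe set is annotated to the mouse gene, and how far it reads the human BRCA1 of these cells was not tested. Sin3a, a corepressor scaffold, was the highest at 0.71 and Rbbp7, a histone-binding subunit, the lowest at -0.49 for RQ minus WT. Hdac2, the deacetylase reported with BRCA1 at the miR-155 gene, read log2 9.79 in WT, 9.56 in MI and 10.02 in RQ. Hdac2 is named here after its values were seen.

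Markers of pluripotent cells, extraembryonic endoderm and mesenchyme differed widely between the arrays. Of 8 pluripotency markers 6 exceeded WT by 2-fold or more in RQ (1.70% of all genes). None was 2-fold below WT (1.49% of all genes). Nr0b1, among the 6, passed the limit through RQ alone, at 8.12 against 6.20 for WT and 6.18 for MI. The log2 of the summed signal of the 8 markers was 13.2, 13.4 and 14.4 in WT, MI and RQ. Of 11 extraembryonic endoderm markers above the limit 7 lay 2-fold or more below WT in RQ (1.49% of all genes), and 7 in MI (2.58% of all genes). Cubn, Lrp2 and Lama1 are among them and passed the limit through WT alone, and Gata6, Sox17, Afp and Ttr were highest in MI by small amounts. Their summed signal over 13 genes was log2 13.7 in WT, 11.0 in MI and 10.7 in RQ. Of 6 mesenchyme markers above the limit 5 were at least 2-fold higher in MI than in WT (0.524% of all genes) and 5 were 2-fold lower in RQ than in MI (0.499% of all genes). S100a4 and Cd44 passed the limit through MI alone. The summed mesenchyme signal over 8 genes was log2 9.63, 12.1 and 9.49 in WT, MI and RQ. The RQ array thus had the highest summed pluripotency signal, though not for Pou5f1, and 13 targets were also highest on it. WT, where Fos and Sdcbp were highest, also had the highest summed endoderm signal. The part of cell makeup in the differences of the targets was not tested.

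Blood cells, in which many miR-155 targets were described, had markers of low signal. The 10 blood markers read between log2 5.29 and 7.26 over the 3 arrays, and 5 of them had a mean below the limit, among them the embryonic globin genes Hbb-bh1 and Hba-x. Hba-x read 5.48, 5.36 and 5.29 in WT, MI and RQ. None of the 5 above the limit differed by 2-fold in any comparison (0.499% to 2.58% of all genes, by comparison and direction). Cd34, also a marker of endothelium and mesenchyme, had a mean below the limit but read 6.71 in MI against 5.61 in WT and 5.69 in RQ. Of 5 macrophage markers 3 had a mean above the limit, among them Cd68 through WT alone (7.16, against 6.29 in MI and in RQ). The RQ minus WT values of these 3 macrophage markers ranged from -0.87 (Cd68) to -0.03. Spi1, the defining factor of that lineage, was below the limit as given above. Csf1r, the receptor of macrophage colony-stimulating factor, was above it on each array, at 7.70 in WT, 7.85 in MI and 7.59 in RQ. Inpp5d, a target known from blood cells, was above it too, at 8.08, 8.04 and 8.72.

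**Figure D4:**
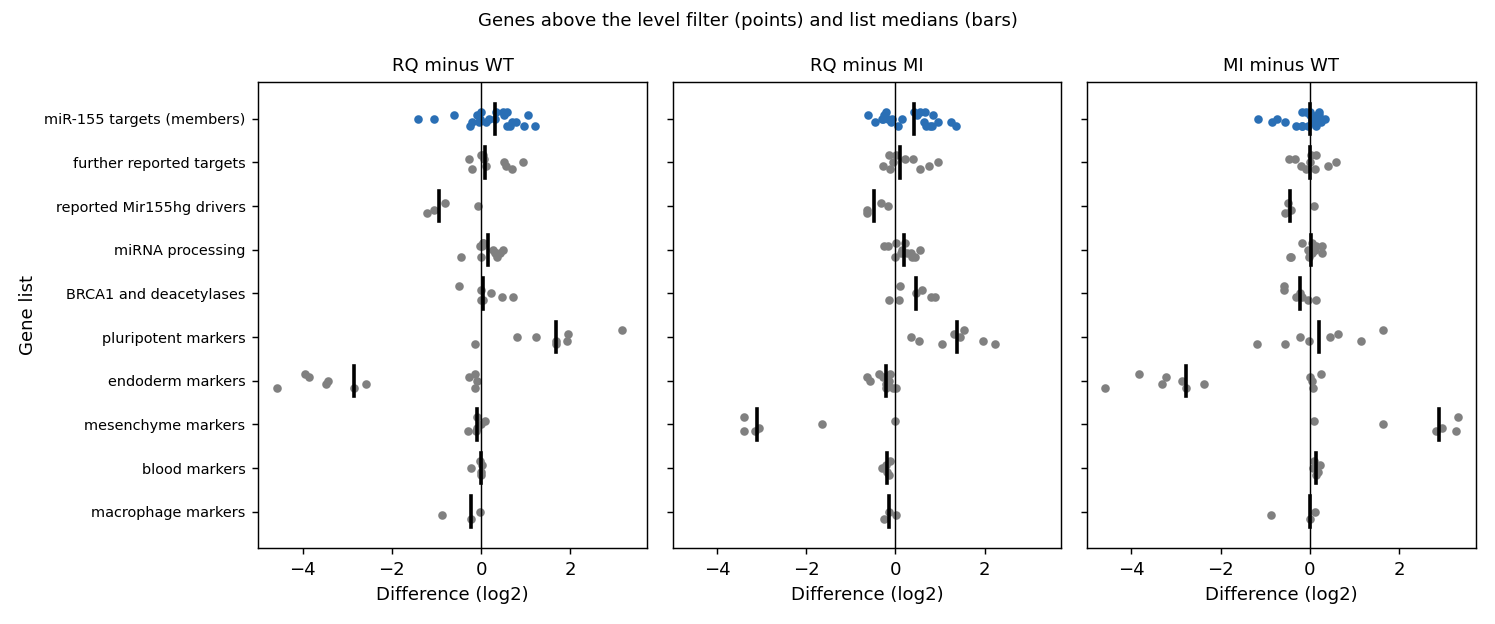
Log2 difference (horizontal axis) of RQ minus WT, RQ minus MI and MI minus WT for genes above the level limit, 1 point per gene, in the 23 reported targets and 9 other lists, with a bar at each list's median. The targets centre at 0.31, 0.40 and 0.01 in the 3 panels. Pluripotency markers reach 3.17 in RQ minus WT, endoderm markers -4.58 in RQ minus WT, and mesenchyme markers -3.40 in RQ minus MI. Endoderm markers stay between -0.64 and 0.01 in RQ minus MI, and mesenchyme markers between -0.30 and 0.08 in RQ minus WT.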

How the data were processed

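The deposited values are log2 signals made by the authors, and the submitters' processing notes name Partek and RMA without versions or order of steps. RMA usually subtracts background, makes array distributions alike and summarises each probe set, which compresses differences near background. The deposited distributions are not fully alike, with an SD of 1.06 for MI against 1.17 for WT and RQ. A further quantile normalization lowered the targets' median of RQ minus MI from 0.40 to 0.13. Scanner files, detection calls and dates were not used here. Of 45101 probe sets, 34958 had 1 gene symbol in the platform annotation, 932 several and 9211 none. Some of the 64 control probe sets were among the 34958 and were left out, which gave 34945. Entrez identifiers of all 28 members on the arrays matched RefSeq with the same symbol. No build is named for the arrays, so genes have no coordinates here.

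A gene with several probe sets was read from the 1 whose average signal was highest. Genes were counted at 2-fold where that average reached the median of all values (log2 6.31), the same filter for every comparison. All members are named, grouped by role, and for each other list the genes highest and lowest in RQ minus WT. The members and lists were chosen with earlier results of these data known. With 1 array a genotype no test was run. Alternatives were other scalings (centring, quantile normalization, lowess with span 0.3 and 3 iterations), filters and probe set rules. Counting was tested on simulated data. Python 3.11.15, pandas 2.3.3 and statsmodels 0.14.6 were used.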

Additional observations from a re-analysis of the deposited data

How the results depend on the processing

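No paired analysis was possible because each genotype has 1 array. In none of the alternatives did the median of RQ minus WT or of RQ minus MI over the targets fall below 0. The median of MI minus WT changed sign with centring (-0.0512), the lowess correction (-0.0217) and means of probe sets (-0.0030). The median of RQ minus MI was 0.13 after quantile normalization again and 0.21 after lowess, where 1 target, Bach1, was 2-fold higher. Without a level filter (27 targets) the medians were 0.10 for RQ minus WT and 0.0512 for RQ minus MI. With the filter at the 75th percentile (log2 6.92, 17 targets) they were 0.51 and 0.65, with 1 target 2-fold lower in RQ than in WT, 0 lower in MI than in WT, and 3 lowest in RQ. With means of probe sets (17 targets) RQ minus WT had a median of 0.44, 1 target was 2-fold lower, 1 (Jarid2) was 2-fold higher than in MI and 3 were lowest in RQ. The stricter filter and means of probe sets test fewer targets. By means of probe sets Bach1 was at 0.46 (RQ minus MI) and Sdcbp at -0.42 (RQ minus WT). Detection calls were not used here, so the limit stands in for background.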
